A study of Mus musculus with 12 samples.

Results

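The genes of the cytosolic ribosomal proteins were followed in 12 pancreatic neuroendocrine tumors (PanNETs) of RIP1Tag2 mice. Members were the protein-coding mouse genes whose symbol is Rpl or Rps followed by a number, with an optional closing letter or number, together with Rpsa, Rplp0, Rplp1 and Rplp2. Ribosomal S6 kinases, Rps19bp1 and genes annotated as pseudogenes were left out. The rule gave 83 genes of the 38924 listed in the count tables, 51 of the large and 32 of the small ribosomal subunit, and 80 of them passed the filter on low counts, as did 16645 genes in all. The 3 others were close to unread: Rpl10l had no read in any tumor, Rpl3l had between 0 and 3 reads per tumor, and Rpl39l had at most 1 read in 11 tumors and 72 in R+S tumor 10.

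All mice were RIP1Tag2 animals on the C57Bl6 background, in which the insulin promoter drives the SV40 T antigen in pancreatic beta cells, so that the tumors arise from those cells. The groups were 4 tumors from control mice given saline, 4 from mice given sunitinib, an inhibitor of VEGF and PDGF receptor kinases, and 4 from mice given rapamycin, an mTOR inhibitor, together with sunitinib (R+S). No tumor received rapamycin alone, so the R+S versus sunitinib comparison is the one that shows rapamycin added to sunitinib. Treatment ran for 4 days from 15.5 weeks of age. Whole tumors were sequenced, and nothing in the labels says whether the tumors of a group came from separate mice, so p-values measure the spread between these samples.

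Almost all of these proteins are present once in each ribosome, and cells keep their synthesis in balance. The mRNAs of ribosomal proteins begin with a run of pyrimidines, the 5′ terminal oligopyrimidine or TOP sequence. Through it mTOR controls how well they are translated, a step that counts of mRNA reads do not measure. Phosphorylation of ribosomal protein S6, the product of Rps6, is the usual readout of mTOR activity and was used as such in the study. These genes also have a very large number of processed pseudogenes, copies of the mRNA inserted back into the genome.

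The starts of the mRNAs are shown first, because the TOP sequence is what links these genes to the pathway that rapamycin blocks. RefSeq promoter sequences (GRCm38.p6) were held for 63 of the 83 members. The 40 bases from 20 before to 20 after the first start listed for a gene were searched on the transcribed strand for an unbroken run of at least 8 bases that are C or T. Such a run was present in 28 of the 63 members (44.4%) and in 4300 of all 27025 genes (15.9%). The median longest run was 7 bases in members and 5 over all genes. The 11 windows below belong to Rps6 and to 10 members that differed between the groups, with and without such a run, and capitals mark the longest pyrimidine run.
Rps6 (chr4:86857348-86857387, minus strand): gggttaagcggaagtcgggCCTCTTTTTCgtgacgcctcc
Rpl35 (chr2:39005112-39005151, minus strand): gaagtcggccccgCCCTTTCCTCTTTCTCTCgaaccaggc
Rps10 (chr17:27635225-27635264, minus strand): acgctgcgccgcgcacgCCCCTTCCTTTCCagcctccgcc
Rpl28 (chr7:4792945-4792984, plus strand): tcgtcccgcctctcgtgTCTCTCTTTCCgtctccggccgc
Rpl13 (chr8:123102330-123102369, plus strand): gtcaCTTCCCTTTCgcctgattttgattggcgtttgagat
Rpl10a (chr17:28328451-28328490, plus strand): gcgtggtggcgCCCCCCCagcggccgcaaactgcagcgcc
Rpl12 (chr2:32961692-32961731, plus strand): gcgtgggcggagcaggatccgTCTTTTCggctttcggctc
Rps2 (chr17:24720043-24720082, plus strand): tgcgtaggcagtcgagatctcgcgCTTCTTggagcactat
Rps16 (chr7:28350669-28350708, plus strand): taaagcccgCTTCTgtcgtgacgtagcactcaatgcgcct
Rpl9 (chr5:65391412-65391451, minus strand): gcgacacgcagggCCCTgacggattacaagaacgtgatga
Rpl41 (chr10:128549149-128549188, minus strand): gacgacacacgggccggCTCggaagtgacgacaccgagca

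Rpl35 had the longest run of the 11, with 18 pyrimidines, followed by Rps10 with 13 and Rpl28 with 11. In 6 of the 11, Rpl10a, Rpl12, Rps2, Rps16, Rpl9 and Rpl41, no run reached 8 bases. In Rpl41 the longest run was 3 bases in this window, and the listed start need not be the one used in these tumors. The letters CCGGAAG, searched on both strands of the whole 300 bases, were found in 25 of the 63 members (39.7%) and in 2465 of the 27025 genes (9.12%). These letters are the core that factors of the ETS family recognize, and a match is a description of the sequence only.

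The copies bear directly on what was counted, because a read with more than 1 best location was credited to no gene. The main mRNA of each member was cut into overlapping words of 50 bases, and each word was looked up in the annotated transcripts of all genes that do not overlap the member. In 80 of the 83 members at least 1 word occurred elsewhere, in 43 more than 50% of the words did, and the median was 51.7%. In all, 1104 annotated pseudogenes shared a word with a member. Rps3, a small subunit protein at the mRNA entry, had 2.96% of its words elsewhere, whereas Rps27 (chr3:90212522-90213651) had 98.6%, Rpl9 93.3% and Rpl10 92.1%. Rpl7a shared words with 120 pseudogenes, Rpl21 and Rpl29 with 81 each.

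The coding sequence of Rps6 (747 bases) is identical, letter for letter, to that of the processed pseudogene Rps6-ps4 on chromosome 2. The same held for Rpl12 (495 bases) and the transcribed pseudogene Gm10275 on chromosome 10, and for Rps27 (252 bases) and the retrogene Rps27rt on chromosome 9, which is annotated as protein-coding. A stretch of 60 coding bases shows this for Rps6. No letter is in capitals because no base differs.
Rps6 (chr4:86856800-86856859, minus strand): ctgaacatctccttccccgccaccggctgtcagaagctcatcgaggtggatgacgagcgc
Rps6-ps4 (chr2:75191757-75191816, minus strand): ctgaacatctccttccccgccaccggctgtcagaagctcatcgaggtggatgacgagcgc

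Members with more shared sequence tended to have lower read levels, with wide overlap. Levels between genes are given as normalized CPM (reads scaled to a common library size) per kb of the main mRNA, averaged over the 4 control tumors. The median was 244 in the 12 tested members with under 25% of their words elsewhere, 118 in the 48 with 25 to 75%, and 24.4 in the 20 with over 75%. The ranges overlapped, at 22.7 to 685, 2.39 to 760 and 0.404 to 298. Across the 80 tested members, Spearman's rho between this level and the shared percentage was -0.43 with words of 50 bases and -0.64 with words of 100 bases. Genes are not independent replicates and the length of the reads is not given in the sources used here, so this is a description. The highest levels were those of Rplp1 (760 CPM per kb), Rps15 (697) and Rpl13a (685), and the lowest among tested members was that of Rpl24 (0.404), which had at most 51 reads in any tumor. Genes whose proteins are present in equal amounts in the ribosome thus differed by orders of magnitude in counted reads, and levels of different members are not compared further.

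**Figure D1:**
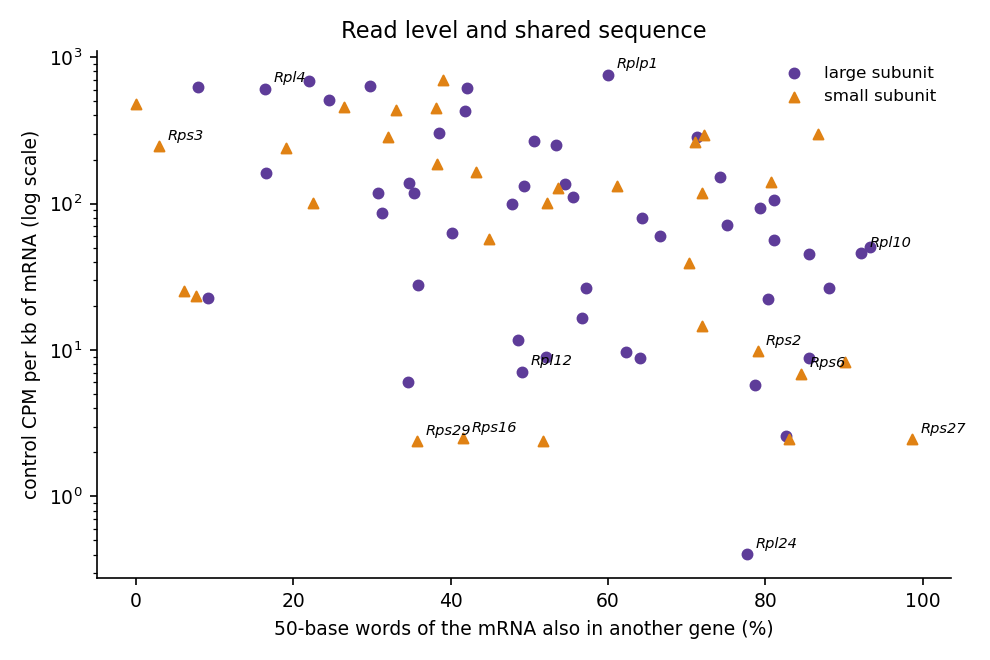
Read level of the 80 tested ribosomal protein genes in control tumors (CPM per kb of main mRNA, log axis) against the percentage of 50-base words of the mRNA that also occur in another gene, with circles for the large and triangles for the small subunit. The median level is 244 below 25% and 24.4 above 75%.

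Summed over the 83 genes, between 321695 and 643020 reads per tumor were counted. They made up 1.24%, 1.24%, 1.08% and 0.922% of all counted reads in control tumors 1 to 4. In sunitinib tumors 5, 6, 8 and 12 they made up 1.36%, 1.24%, 1.32% and 2.02%. In R+S tumors 4, 5, 7 and 10 they made up 1.15%, 1.15%, 1.16% and 0.935%. The group means were 1.12% ± 0.153 (SD, n = 4) in control, 1.48% ± 0.360 in sunitinib and 1.10% ± 0.111 in R+S tumors. Sunitinib tumor 12 was far above the other 3 sunitinib tumors, and the lowest sunitinib tumor was below the highest control tumor. The large subunit genes took 0.673% ± 0.0886 of the reads in control, 0.879% ± 0.201 in sunitinib and 0.666% ± 0.0703 in R+S tumors. The small subunit genes took 0.447% ± 0.0642, 0.605% ± 0.159 and 0.434% ± 0.0407, so that both subunits showed the same order of means.

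On the log2 CPM scale each tumor was also described by the median, over the 80 tested members, of the difference from the control mean. Control tumors 1 to 4 had medians of 0.13, 0.17, -0.04 and -0.26, with 67, 71, 28 and 3 of the 80 members above the control mean. By that count control tumor 2 was within the range of the sunitinib tumors. Sunitinib tumors 5, 6, 8 and 12 had 0.27, 0.34, 0.28 and 0.91, with 69 to 78 of the 80 members above the control mean. R+S tumors 4, 5, 7 and 10 had 0.02, -0.03, 0.00 and -0.19, with 12 to 44 members above it. By this measure every sunitinib tumor lay above every control and every R+S tumor, and the R+S tumors lay within the range of the controls.

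**Figure D2:**
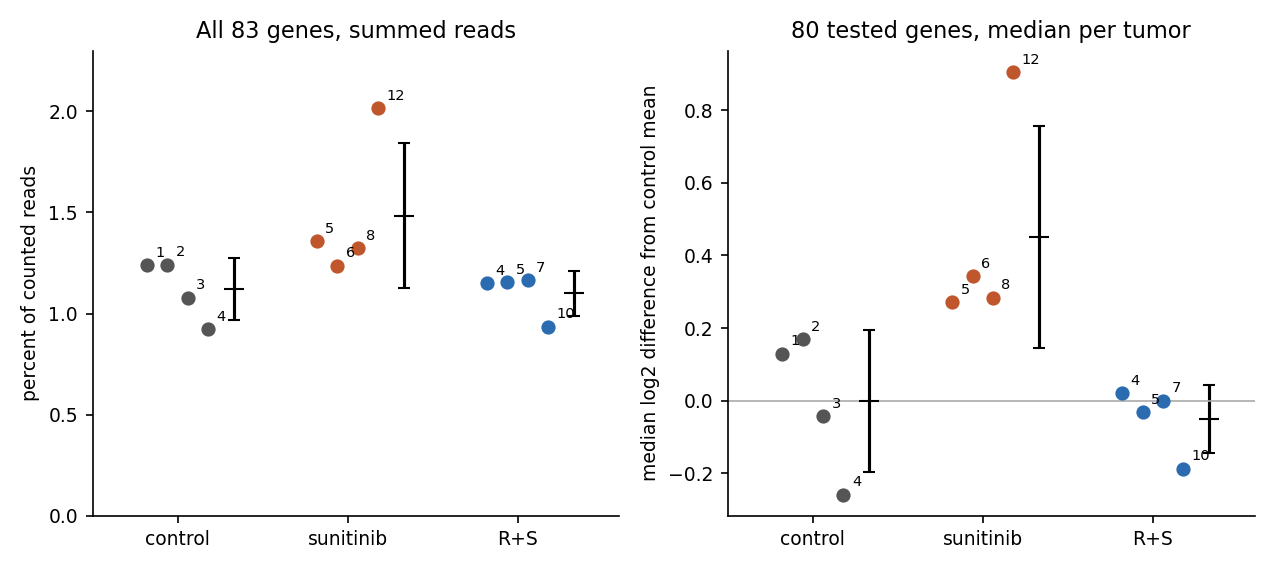
Left, reads on all 83 ribosomal protein genes as a percentage of counted reads in each tumor. Right, the median over the 80 tested genes of the log2 CPM difference from the control mean. Points are tumors with their replicate numbers, and bars give the mean ± SD of 4 tumors. Sunitinib tumor 12 is the highest in both, with 2.02% and 0.91.

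Libraries held between 31872342 and 44215054 counted reads, a depth at which members with few reads are imprecise by counting error alone. Several features of the libraries moved with the groups, and their part in the results below was not tested. Of 30 markers of acinar cells, the enzyme-producing cells of the exocrine pancreas, 29 were tested, and together the markers took 0.00503% to 0.0171% of reads in control, 1.36% to 5.03% in sunitinib and 0.382% to 1.92% in R+S tumors. 5 of the 30 had no read in any control tumor. 28 of the 29 rose in sunitinib and 26 in R+S tumors against control, and 2 were lower in R+S than in sunitinib tumors. Sunitinib tumor 12, with the highest ribosomal protein reads, had the smallest acinar share of its group, 1.36%. The 12 beta-cell markers were present in every tumor at 3.48% to 7.81% of reads, except in sunitinib tumor 6, where they took 0.501%. The 12 endothelial markers took 0.0646% to 0.0847% of reads in control, 0.00598% to 0.0101% in sunitinib and 0.0133% to 0.0171% in R+S tumors. Of these markers, 11 of the 12 fell in both treated groups against control, and 8 of the 12 were higher in R+S than in sunitinib tumors. Of 12 beta-cell markers 0 were called in any comparison, and of 12 macrophage, 11 lymphocyte and 4 muscle markers tested at most 2 of a list were. Alignments to several places numbered 0.594 to 0.817 per counted read in control, 0.891 to 1.25 in sunitinib and 0.586 to 0.902 in R+S tumors. The control tumors share 1 label prefix that no treated tumor has, so that any batch behind the prefix and the treatment cannot be told apart. In whole tumors, fewer cells of a type and less RNA per cell cannot be told apart either.

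Sunitinib versus control addressed how the tumors differ under inhibition of VEGF and PDGF signaling. Ribosomal protein mRNAs were higher in sunitinib tumors in nearly all cases: 78 of the 80 tested members had a positive log2 fold change, with a median of 0.48 (quartiles 0.31 and 0.61), against 53.3% positive and a median of 0.03 over all 16645 tested genes. By edgeR's quasi-likelihood test with Benjamini-Hochberg adjustment over all genes, 6 members rose and 0 fell (7.5%). Over all genes 4.48% were called, 1.93% as higher and 2.55% as lower. At an unadjusted p under 0.05, 46 members were higher and 0 lower, where 11.3% and 8.2% of all genes were. In 26 of the 80 members all 4 sunitinib tumors were above all 4 control tumors, a pattern found in 5.17% of all genes, and in 0 members were they all below, as in 5.76% of all genes. The members that rose were Rps2, Rps10, Rpl12, Rpl9, Rpl13 and Rpl10a. The count was 18 with DESeq2, which called 8.87% of all genes, and 1 in a fit of these 8 tumors alone, which called 2.33%. A fit adjusted for an acinar score called 0 of all 16645 genes, members included, and gave a median of 0.90. Without sunitinib tumor 12 it was 5 and the median fell to 0.29, with 74 of 80 members positive. It was 3 without control tumor 3 or control tumor 4, 4 without control tumor 2, 10 without sunitinib tumor 5 and 11 without sunitinib tumor 6, in fits that called 2.61% to 5.34% of all genes.

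Rps2, a small subunit protein at the entry of the mRNA channel, was the member that rose most (chr17:24718116-24721929). Its level was 13.5, 8.83, 8.01 and 9.01 CPM in control tumors 1 to 4 and 23.6, 23.3, 17.8 and 36.7 in sunitinib tumors 5, 6, 8 and 12. It was 9.01, 14.7, 12.9 and 11.4 in R+S tumors 4, 5, 7 and 10. Every sunitinib tumor was above every other tumor. The log2 fold change against control was 1.37 ± 0.25 (SE), or 2.58-fold, with an adjusted p of 0.0084 from edgeR. Shared words made up 79.0% of the Rps2 mRNA, with 71 pseudogenes among its partners.

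Rpl12, at the base of the stalk that recruits translation factors (chr2:32961559-32965345), had 8.25, 9.78, 9.40 and 7.94 CPM in the control tumors. It had 14.7, 20.8, 13.2 and 16.8 in the sunitinib tumors, and 7.15, 6.96, 6.55 and 7.50 in the R+S tumors, in the same order of tumors as above. The 3 groups did not overlap. Against control the log2 fold change was 0.89 ± 0.17 in sunitinib tumors (adjusted p = 0.0106, edgeR). Rpl10a, another large subunit protein, had 18.6 to 20 CPM in control, 25.9 to 42.6 in sunitinib and 16.0 to 18.1 in R+S tumors, again without overlap between any groups, and rose by 0.74 ± 0.16 (adjusted p = 0.0182, edgeR). In both genes sunitinib tumor 6, the tumor with few beta-cell reads, was the highest.

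Rpl9 and Rpl13, also of the large subunit, rose by 0.86 ± 0.17 and 0.80 ± 0.19 on the log2 scale (adjusted p = 0.0147 and 0.0315, edgeR). Rpl9 ran from 29.1 to 45.8 CPM in control and from 54.1 to 88.3 in sunitinib tumors. Rpl13 ran from 13.2 to 20.4 and from 26 to 42.5. Rps10, a small subunit protein mutated in some patients with Diamond-Blackfan anemia, went from 40.8 to 61.8 CPM in control to 71.2 to 149 in sunitinib tumors, with a log2 fold change of 0.92 ± 0.22 (adjusted p = 0.0396, edgeR). In all 6 members the exact permutation p was 0.0286, the smallest that 4 tumors against 4 allow. The calls of Rps2, Rpl12 and Rpl9 held when any 1 of the 8 tumors was left out. Rps10 lost its call without control tumor 2, 3 or 4 or sunitinib tumor 12, Rpl13 without any 1 of the control tumors, and Rpl10a without control tumor 2, 3 or 4.

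**Figure D3:**
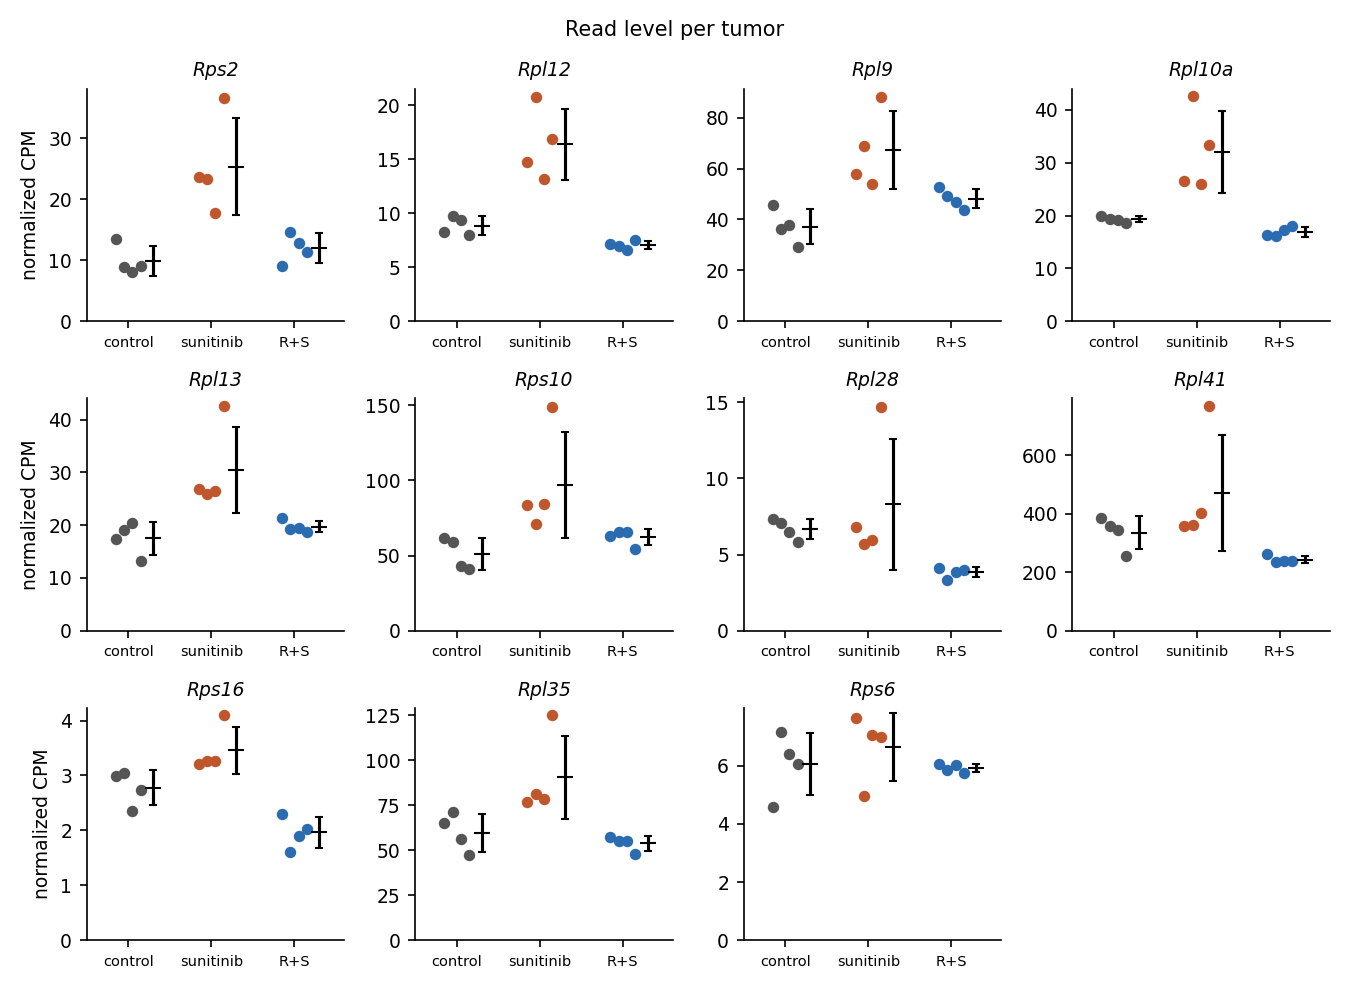
Normalized CPM of 11 ribosomal protein genes in each tumor, with the mean ± SD of 4 tumors beside the points, for 10 genes that differed in a comparison and for Rps6. In all genes shown except Rpl28, Rpl41 and Rps6, all 4 sunitinib tumors lie above all others. In Rpl28 and Rpl41 sunitinib tumor 12 stands far above the rest of its group.

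R+S versus control gave 0 called members in either direction by edgeR, where 4.16% of all genes were called, 1.55% as higher and 2.61% as lower. At an unadjusted p under 0.05, 1 member was higher and 6 were lower, where 9.3% and 10.9% of all genes were. DESeq2 called 2, 1 in each direction, and 10.1% of all genes. A fit of the 8 tumors alone called 4, all lower, and 15.8% of all genes. The log2 fold changes were centered near 0, with a median of -0.05 (quartiles -0.19 and 0.14), 31 positive and 49 negative. In 10 members all R+S tumors were below all controls and in 1 they were all above, patterns seen in 11.9% and 11.6% of all genes. After adjustment for the acinar score the median was 0.26. The extremes were Rpl28 (-0.79 ± 0.29, adjusted p = 0.155, edgeR) and Rpl24 (0.94, of few reads), which was picked out after its values had been seen. These missed thresholds do not show that the levels were equal.

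R+S versus sunitinib showed what differed when rapamycin was added. Nearly all ribosomal protein mRNAs were lower in R+S tumors: 79 of the 80 tested members had a negative log2 fold change, with a median of -0.49 (quartiles -0.65 and -0.41), against -0.02 over all tested genes. By edgeR, 12 members fell and 0 rose (15%), where 7.21% of all genes were called, 2.63% as higher and 4.58% as lower. At an unadjusted p under 0.05, 51 members were lower and 0 higher, where 17.6% and 12.8% of all genes were. In 44 members all 4 R+S tumors were below all 4 sunitinib tumors, a pattern found in 9.73% of all genes, and in 0 members were they all above, as in 8.9% of all genes. This comparison and sunitinib versus control use the same 4 sunitinib tumors, so the low values here and the high values there are not independent of each other. Both subunits were concerned: 6 of 48 large and 6 of 32 small subunit members fell.

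The calls of this comparison depended on single tumors. Without R+S tumor 4, 5 or 7 the count of members was 0, in fits that called 1, 0 and 1 gene over the whole table, and without R+S tumor 10 it was 2. It was 3 without sunitinib tumor 12 and 7 without sunitinib tumor 8, but 24 without sunitinib tumor 5 and 23 without sunitinib tumor 6. The last 2 fits called 16.9% and 10.1% of all genes. It was 36 with DESeq2, which called 18.1% of all genes, and 3 without a filter on low counts, where 1.91% were called. After adjustment for the acinar score 1 member was called among 74 genes in all, and in a fit of the 8 tumors alone 0 members among 3 genes in all. The median stayed between -0.33, without sunitinib tumor 12, and -0.57 over all of these omissions, and at least 78 of the 80 members stayed negative.

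Among the members that fell were Rpl12, Rpl28, Rps2, Rpl41, Rpl10a, Rps16 and Rpl35. Rpl12 fell by 1.22 ± 0.17 on the log2 scale (adjusted p = 0.0143, edgeR), Rps2 by 1.08 ± 0.25 (adjusted p = 0.0328) and Rpl10a by 0.92 ± 0.16 (adjusted p = 0.0233), with the levels given above. Rpl12 and Rpl10a lost their calls without R+S tumor 4, 5 or 7, and Rps2 without any 1 R+S tumor or sunitinib tumor 12. The exact permutation p was 0.0286 for each of the 7.

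Rpl28 and Rpl41, both of the large subunit, had another shape. Rpl28 had 7.33, 7.06, 6.46 and 5.83 CPM in control tumors 1 to 4 and 6.83, 5.66, 5.99 and 14.7 in sunitinib tumors 5, 6, 8 and 12. In R+S tumors 4, 5, 7 and 10 it had 4.13, 3.36, 3.89 and 4.01, below every tumor of both other groups. Its log2 fold change was -1.11 ± 0.29 against sunitinib (adjusted p = 0.0454, edgeR), and -0.68 without sunitinib tumor 12, when it was no longer called. Against control its sunitinib tumors gave 0.31 ± 0.29 (adjusted p = 0.583, edgeR), which turned to -0.12 without tumor 12. Rpl41, which encodes one of the shortest proteins of the cell, had 257 to 385 CPM in control, 357 to 768 in sunitinib and 235 to 264 in R+S tumors, and fell by 0.96 ± 0.24 (adjusted p = 0.0376, edgeR).

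Rps16 was counted from few reads, at most 140 per tumor, and had 2.36 to 3.04 CPM in control, 3.21 to 4.10 in sunitinib and 1.62 to 2.3 in R+S tumors, without overlap between groups. It fell by 0.82 ± 0.21 (adjusted p = 0.0400, edgeR). Rpl35, which lies near the exit of the peptide tunnel, had 76.9 to 125 CPM in sunitinib and 47.8 to 57.3 in R+S tumors and fell by 0.75 ± 0.18 (adjusted p = 0.0344, edgeR). Rps26, of the small subunit, fell by 0.66 ± 0.17 (adjusted p = 0.0389, edgeR), with 126 to 214 CPM in sunitinib and 83.8 to 101 in R+S tumors, without overlap. Of the 12, every one lost its call in at least 3 of the 8 fits that left out a tumor. Rpl4, a core protein of the large subunit, was the only member with a positive value in this comparison (0.17, adjusted p = 0.481, edgeR), and was picked out after its value had been seen.

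**Figure D4:**
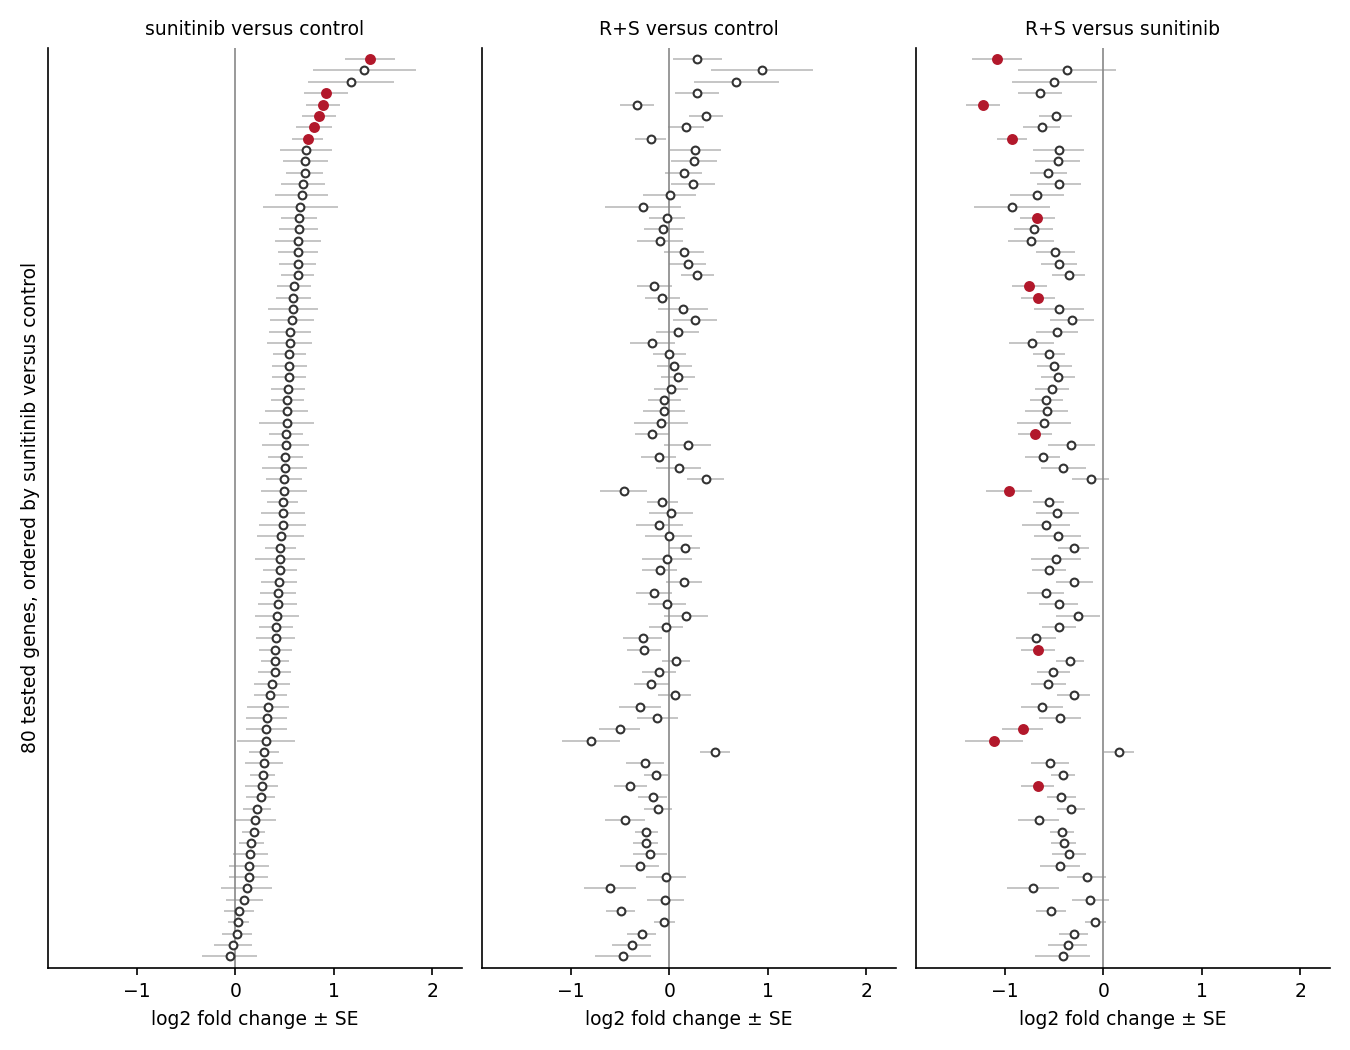
Log2 fold change ± SE of the 80 tested ribosomal protein genes in the 3 comparisons, ordered by sunitinib versus control. Filled points passed an adjusted p under 0.05 by edgeR: 6 in sunitinib versus control, 0 in R+S versus control and 12 in R+S versus sunitinib. The comparisons share tumors.

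The direction was the same in members with many copies and with few. In sunitinib versus control the median log2 fold change was 0.45 in the 12 members with under 25% of words elsewhere, all positive, and 0.44 in the 20 with over 75%, of which 19 were positive. In R+S versus sunitinib the medians were -0.49 and -0.46. The calls were spread differently. In sunitinib versus control edgeR called 0 of the 12 members with under 25%, 2 of the 48 with 25 to 75% and 4 of the 20 with over 75%. In R+S versus sunitinib it called 1, 9 and 2. The part of shared sequence in the calls was not tested. Over the 80 members Spearman's rho between the log2 fold change and the shared percentage was 0.01 in sunitinib versus control and 0.13 in R+S versus sunitinib. Reads on the 685 listed pseudogenes that share a word with a member numbered 8728 to 19944 per tumor. Per 100 reads on members this was 2.55 to 2.77 in control, 3.02 to 3.10 in sunitinib and 2.78 to 2.86 in R+S tumors, without overlap between the groups.

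Rps6 itself did not pass the test in any comparison. It had 4.60, 7.16, 6.39 and 6.06 CPM in control tumors 1 to 4, 7.63, 4.94, 7.04 and 6.99 in sunitinib tumors 5, 6, 8 and 12, and 6.04, 5.85, 6.03 and 5.74 in R+S tumors 4, 5, 7 and 10. The groups overlapped, and the log2 fold changes were 0.14 ± 0.20 for sunitinib versus control, -0.03 ± 0.20 for R+S versus control and -0.17 ± 0.20 for R+S versus sunitinib (adjusted p = 0.738, 0.951 and 0.588, edgeR). These values come from 179 to 299 reads per tumor, with 84.6% of the mRNA's words found elsewhere. Reads on Rps6-ps4, the copy with the identical coding sequence, numbered 246, 298, 219 and 227 in the control tumors. They numbered 978, 795, 1344 and 365 in the sunitinib tumors and 233, 268, 257 and 413 in the R+S tumors. Rps6-ps4, looked up after the identity had been seen, was thus read about as often as Rps6 in control tumors and more often in every sunitinib tumor. It rose by 1.91 ± 0.31 in sunitinib versus control (adjusted p = 0.00326, edgeR). Gm10275, the copy of Rpl12 and likewise looked up afterwards, had 65 to 82 reads in control and 112 to 183 in sunitinib tumors (1.10 ± 0.26, adjusted p = 0.0376, edgeR). Rps6-ps4, on the minus strand, also overlaps 2600014E21Rik, a noncoding RNA gene on the plus strand that has no entry in the count tables. Whether such reads were transcribed from the copy, from the parent gene or from an overlapping gene was not tested.

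Among the stalk proteins, which bind elongation factors, Rplp0 had 579 ± 85.4 CPM (SD, n = 4) in control, 782 ± 197 in sunitinib and 521 ± 61.1 in R+S tumors. Rplp2 had 113 ± 18.5, 166 ± 38.6 and 114 ± 5.19. Neither was called by edgeR in any comparison, though the exact permutation p of Rplp2 in R+S versus sunitinib was 0.0286. Rplp1 differed in shape, with 379 ± 66.7, 373 ± 96.0 and 291 ± 36.7 CPM, and was 1 of only 2 tested members, with Rps27, whose log2 fold change in sunitinib versus control was negative (-0.02 ± 0.20, adjusted p = 0.962, edgeR). Rpl5 and Rpl11, which with an RNA of the large subunit bind and restrain MDM2, had log2 fold changes of 0.48 ± 0.16 and 0.40 ± 0.17 in sunitinib versus control and of -0.55 ± 0.16 and -0.51 ± 0.17 in R+S versus sunitinib, with adjusted p of 0.117, 0.220, 0.0531 and 0.0810 (edgeR). Rpsa, which is also known as a laminin receptor, had 204 ± 38.3, 237 ± 23.6 and 188 ± 19.4 CPM, and no comparison passed the test. Rpl13a and Rps18, often used as reference genes, were not called either. Rpl13a had 717 ± 106, 1029 ± 366 and 691 ± 43.7 CPM, with 1563 in sunitinib tumor 12, and Rps18 had 167 ± 23.9, 229 ± 61.6 and 156 ± 12.9.

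Some members are paralogs of others. Rpl22l1 had 24.7, 14.5, 10.6 and 8.62 CPM in control tumors 1 to 4, 17.9, 52.6, 21.1 and 40.5 in sunitinib tumors 5, 6, 8 and 12, and 27.5, 32.5, 22.0 and 11.7 in R+S tumors 4, 5, 7 and 10. Its tumors differed widely within every group, and the log2 fold change of 1.17 ± 0.43 in sunitinib versus control did not pass the test (adjusted p = 0.164, edgeR). Its partner Rpl22 had 242 ± 44.4, 269 ± 54.1 and 212 ± 24.6 CPM. Rps27l, a target of p53, had 50.3 ± 6.56 CPM in control, 51.6 ± 10.1 in sunitinib and 35.7 ± 4.12 in R+S tumors. All R+S tumors were below all others, and the log2 fold changes were -0.49 ± 0.15 against control and -0.53 ± 0.15 against sunitinib (adjusted p = 0.0913 and 0.0552, edgeR). Rps27 itself had only 22 to 45 reads per tumor, and Rps27rt, the retrogene with the same coding sequence, had 36 to 94. Rpl3, a core protein beside the site of peptide bond formation, had 48.2 to 70.1 CPM in control, 69.7 to 119 in sunitinib and 52.3 to 68.5 in R+S tumors. It was called in no comparison by edgeR. The same held for Rpl7 and Rpl7l1, for Rpl10 and Rpl39, the partners of the barely read Rpl10l and Rpl39l, and for the X-linked Rps4x. The exact permutation p was nevertheless 0.0286 for Rpl3, Rpl7l1 and Rpl39 in R+S versus sunitinib and for Rpl7 in sunitinib versus control. Fau and Rpl36al also encode ribosomal proteins but do not match the name rule. Their log2 fold changes were 0.19 and 0.26 in sunitinib versus control and -0.78 and -0.65 in R+S versus sunitinib, and neither was called. Rps4l, which matches the name rule but is annotated as a transcribed processed pseudogene and is not a member, had 69 to 196 reads in 3 control tumors and 4785 in control tumor 2. It had 43 to 59 reads in 3 sunitinib tumors and 2837 in tumor 12, and 32 to 66 in 3 R+S tumors and 1453 in tumor 7.

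Other genes that make or use ribosomes were taken from fixed lists. Of 32 translation factors and other TOP mRNAs, 0 were called in sunitinib versus control (median 0.28, 30 positive) and 0 in R+S versus control (median 0.03). In R+S versus sunitinib 3 fell (median -0.35). They were Eif3i, a subunit of initiation factor eIF3 (-0.87 ± 0.20), the nucleolar protein gene Npm1 (-0.63 ± 0.14) and Btf3 (-0.55 ± 0.14), with adjusted p of 0.0323, 0.0328 and 0.0404 (edgeR). Of 50 ribosome biogenesis genes, 0 were called in sunitinib versus control (median 0.23, 48 positive). In R+S versus control, where the median was -0.14 and 39 of the 50 were negative, 1 rose, Sbds, which releases eIF6 from the large subunit (0.42 ± 0.10, adjusted p = 0.0382, edgeR). In R+S versus sunitinib 14 fell and 0 rose (median -0.41). Nop58 (-0.85 ± 0.11) and Nhp2 (-1.18 ± 0.21), proteins of the particles that modify ribosomal RNA, and Rrp12 (-0.71 ± 0.13) and Nip7 (-0.73 ± 0.16), which act in subunit assembly, had the smallest p among them.

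The mitochondrial ribosomal proteins, a list added after the values had been seen, were compared because they belong to another ribosome. Of 76 tested, 0 were called in sunitinib versus control (median 0.21), 3 fell in R+S versus control (median -0.32) and 24 fell in R+S versus sunitinib (median -0.50). Unlike the cytosolic members, 73 of the 76 had a negative value in R+S versus control. The difference between the lists was not tested. Short mRNAs of other genes had medians of the same signs as those of the mitochondrial list. Over 916 other protein-coding genes whose main mRNA is at most 1000 bases long, a set also added afterwards, the medians were 0.20, -0.22 and -0.47 in the 3 comparisons, and in R+S versus sunitinib 715 of the 916 had a negative value, with 133 called as lower and 3 as higher. Among the members, the 60 with mRNAs of at most 1000 bases and the 20 with longer ones had medians of 0.49 and 0.47 in sunitinib versus control and of -0.49 and -0.50 in R+S versus sunitinib. The part that mRNA length or RNA quality has in these values was not tested.

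**Figure D5:**
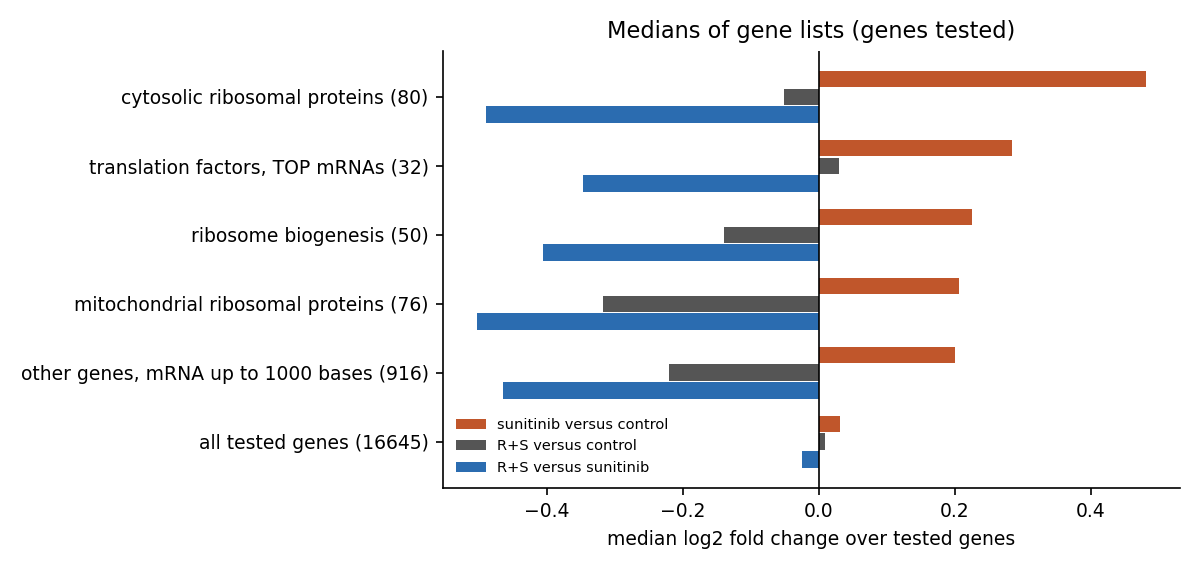
Median log2 fold change over the tested genes of each list (number tested in brackets) in the 3 comparisons. The cytosolic ribosomal protein genes have medians of 0.48, -0.05 and -0.49, and all tested genes have 0.03, 0.01 and -0.02.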

How the data were processed

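RNA-seq libraries had been made from poly(A) RNA of 12 tumors with a strand-specific kit. The authors deposited raw read counts per gene for each tumor, as whole numbers without normalization. The submitters' processing notes name cutadapt 1.2.1, TopHat2 2.0.9, HTSeq 0.5.4p3 and the build GRCm38. The annotation release and the read length are not given in the sources used here. HTSeq leaves out reads aligned to several places, which lowers the counts of genes with copies, and its summary lines were left out of library sizes and tests. Gene names, coordinates and transcripts were taken from GENCODE M21 (GRCm38), which paired 37607 of 38924 identifiers. Copies outside annotated transcripts were not searched.

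Counts were tested with edgeR 4.0.16 (TMM, robust quasi-likelihood F-test, R 4.3.3) on genes passing filterByExpr (minimum count 10, minimum total count 15), with all 12 tumors in 1 fit, 3 contrasts and Benjamini-Hochberg adjustment over all 16645 tested genes, at a threshold of 0.05. Standard errors were derived from the log2 fold change and its F statistic, and a prior count of 2 entered log2 CPM. Named members also had a two-sided exact permutation test over 70 arrangements. Lists, medians and shares of reads were described without a test. No pair of tumors in a group differed as little as counting noise would give. In simulated data for sunitinib versus control over 16645 genes, the fit called 29 of 100 genes given a log2 change of 1, 69 of 100 given a change of 2, and 4 genes given none.

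Named members were, for each comparison, those called (beyond 8 in a direction, the 8 with the largest change), together with Rps6, Rplp0, Rplp1, Rplp2, Rpsa, Rpl13a, Rps18, Rpl5, Rpl11 and the paralogs with their partners, and up to 4 called genes of each other list. Some genes that met this rule are not reported here by name, and they remain in all counts and medians. The members and lists were chosen with earlier results of these data known. Alternatives were DESeq2 1.42.0, other normalizations and filters, fits of 8 tumors, removal of acinar markers or adjustment for their score (the mean log2 CPM per tumor), summing of treated tumors with 1 label prefix, and leaving out each tumor.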

Additional observations from a re-analysis of the deposited data

Results flagged for a closer look

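In groups of 4 tumors, values were singled out when the gap of 1 tumor to its nearest neighbour, as a share of the group's range, exceeded Dixon's critical value, which chance passes in about 5% of groups. Of 108 groups examined, 15 were singled out, 9 of them through sunitinib tumor 12. In that tumor the members took 2.02% of counted reads against 1.24% to 1.36% in the other sunitinib tumors, and their median log2 difference from the control mean was 0.91 against 0.27 to 0.34. Sunitinib tumor 12 was also highest for Rpl13 (42.5 CPM, others 26 to 26.9), Rpl28 (14.7 CPM, others 5.66 to 6.83), Rpl35 (125 CPM, others 76.9 to 81.5), Rpl41 (768 CPM, others 357 to 401), Rpl7 (504 CPM, others 352 to 374) and Rps16 (4.10 CPM, others 3.21 to 3.27). It had the fewest counted reads of all tumors (31872342) and the fewest reads on no gene per counted read (0.126, against 0.156 to 0.233 elsewhere). The part of these in its values was not tested.

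In R+S tumor 10 the members took 0.935% of reads, against 1.15% to 1.16% in the other R+S tumors, and Rps27 was lowest (0.544 CPM, others 0.625 to 0.638). Rpl39l was highest there (1.78 CPM, others at most 0.0272). Rpl41 was highest of its group in R+S tumor 4 (264 CPM, others 235 to 239). Rps4l stood out in 1 tumor of every group: 127 CPM in control tumor 2 (others 1.75 to 4.19), 91.0 CPM in sunitinib tumor 12 (others 1.13 to 1.5) and 39.5 CPM in R+S tumor 7 (others 0.887 to 1.63).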

How the results depend on the processing

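For sunitinib versus control, the count of called members was 18 with DESeq2 (8.87% of all genes called), 1 with only the 8 tumors compared (2.33%) and 0 with the acinar score as a covariate (0 of all genes, median 0.90), and 3 to 11 when a tumor was left out (median 0.29 to 0.57). For R+S versus control it was 2 with DESeq2 (10.1% of all genes), 4 with only the 8 tumors (15.8%) and 0 whenever a tumor was left out, and the median was 0.26 with the acinar covariate and -0.13 to -0.00011 without 1 tumor. For R+S versus sunitinib it was 36 with DESeq2 (18.1% of all genes), 3 with no filter (1.91%), 0 with only the 8 tumors (3 genes in all), 1 with the acinar covariate (74 genes in all) and 0 to 24 when a tumor was left out (median -0.57 to -0.33). Other normalizations and filters, removal of acinar markers, summing by prefix, and members with under 10% shared words kept the counts within 1.5 times and the medians within the spread between tumors. Single members that changed sign in a comparison had not been called there by edgeR. With the acinar covariate, sunitinib versus control gave -0.65 for Rpl22l1, 0.66 for Rplp1 and -0.10 for Rps27l. R+S versus control then gave 0.29 for Rpl10, 0.22 for Rpl11, 0.68 for Rpl13a, 1.19 for Rpl22, -0.81 for Rpl22l1, 0.042 for Rpl28, 0.27 for Rpl35, 0.027 for Rpl41, 0.72 for Rpl5, 0.73 for Rplp0, 0.19 for Rplp1, 0.48 for Rps18, -0.10 for Rps2, 1.07 for Rps6 and 0.25 for Rpsa. The groups account for 95.3%, 92.9% and 59.2% of the variance of the acinar score in the 3 comparisons, so that fit separates the score from treatment poorly. With library sizes alone, sunitinib versus control gave -0.021 for Rpl10 and -0.00028 for Rps27l, and R+S versus control gave -0.021 for Rpl3 and -0.038 for Rplp2. With prefixes summed, Rplp1 was 0.12, Rps27 0.0031 and Rps27l -0.030 in sunitinib versus control and Rpl3 -0.0100 in R+S versus control. In R+S versus control, upper-quartile normalization gave -0.0098 for Rpl3 and -0.024 for Rplp2, and Rplp2 was -0.0040 with DESeq2, -0.014 without acinar markers, -0.0035 with at least 10 counts in every tumor and -0.0069 with only the 8 tumors. Leaving out 1 tumor gave, in sunitinib versus control, -0.11 to 0.13 for Rpl10, -0.12 to 0.46 for Rpl28, -0.17 to 0.13 for Rplp1, -0.24 to 0.082 for Rps27 and -0.11 to 0.12 for Rps27l. In R+S versus control it gave -0.14 to 0.031 for Rpl13a, -0.079 to 0.092 for Rpl3, -0.16 to 0.026 for Rpl5, -0.10 to 0.080 for Rplp2, -0.14 to 0.060 for Rps6 and -0.19 to 0.021 for Rpsa. The cause of these changes was not tested. No paired analysis was possible because the groups compared share at most 1 replicate number. Counting error is relatively large in members with few reads, such as Rps6, Rps27 and Rpl24. Such errors are lower bounds because PCR copies were not marked. The SE also holds the spread between tumors and did not follow read number alone. In sunitinib versus control it was 0.52 for Rpl24, 0.28 for Rps27 and 0.20 for Rps6. It was 0.21 for Rpl13a and 0.43 for Rpl22l1, which have more reads than Rps6.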
